A study of Mus musculus with 32 samples.

Results

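The genes described here are 38 kinetochore and spindle checkpoint genes, chosen by name and matched by symbol to the GENCODE M21 mouse annotation. All 38 were present among the 20368 genes of the juvenile gene table, which holds genes that reached a TPM of 3 in at least 1 mouse, so none was lost to that filter. TPM is an estimated number of transcript molecules, normalized for transcript length and scaled to the same total in every library, so levels can be set side by side between genes. The data are RNA-seq of mixed germ cells of 28 individual C57BL/6J male mice during the first wave of spermatogenesis. They held 3 mice at 8 days post-partum (dpp) and 5 mice at each of 10, 12, 14, 16 and 18 dpp. The paper sampled 5 mice at 8 dpp too, but left out those that matched the others of that age poorly. It names too few cells for library preparation as the likely reason. A further 4 samples held pachytene and diplotene spermatocytes from C57BL/6J males of 9 weeks, enriched by sedimentation at unit gravity, each pooled from 6 mice. The labels give neither a mutation nor a treatment, and age and the adult enrichment are the variables. For the juveniles, seminiferous tubules were digested and washed to reduce interstitial cells, but the germ cells were not sorted by stage. Each juvenile sample therefore mixes several stages and whatever somatic cells remained, and in such bulk samples fewer cells of a type and less RNA per cell cannot be told apart.

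Defining markers placed the samples along the first wave. Over the 7 late pachytene markers the summed level was 35.6 to 44.0 TPM at 8 dpp, 2594.5 to 4937.8 TPM at 18 dpp and 10596.2 to 10882.0 TPM in the adult pools, and all 7 rose from 8 to 18 dpp. Of these, Pgk2 was listed at 0 in every 8 dpp mouse. The 7 spermatogonial markers all fell, from 1088.7 to 1226.2 TPM at 8 dpp to 485.7 to 687.9 TPM at 18 dpp, and stood at 30.5 to 35.6 TPM in the adult. Somatic RNA was present, since the 8 Sertoli markers summed to 6932.2 to 7805.5 TPM at 8 dpp, 3229.3 to 4195.2 TPM at 18 dpp and 292.6 to 429.6 TPM in the adult, with 8 of 8 falling between 8 and 18 dpp and none at 0. Of 7 proliferation markers 2 rose and 4 fell, and their sum was 668.0 to 789.6 TPM at 8 dpp and 691.3 to 725.3 TPM at 18 dpp. Spermatid markers summed to 2.5 to 5.7 TPM at 8 dpp, 6.1 to 17.0 TPM at 18 dpp and 871.9 to 1189.0 TPM in the adult pools. At 18 dpp, mice 4 and 5 stood apart from mice 1 to 3, with late pachytene sums of 2725.4 and 2594.5 TPM against 4745.1 to 4937.8 TPM, and with Sertoli sums of 4106.2 and 4195.2 TPM against 3229.3 to 3368.5 TPM. What these shifts in cell content contribute to the changes of the kinetochore genes was not tested. Peritubular markers summed to 1050.9 to 1160.0 TPM at 8 dpp and 524.3 to 1033.9 TPM at 18 dpp, where 1 of 5 fell. Macrophage markers summed to 26.4 to 33.3 TPM and 39.7 to 78.6 TPM, where 4 of 5 rose, and Leydig markers to 175.3 to 198.4 TPM and 169.1 to 472.1 TPM, where 3 of 6 rose. Early meiotic prophase markers summed to 221.4 to 324.7 TPM and 790.2 to 978.2 TPM, where 5 of 6 rose.

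The kinetochore is the protein platform on each centromere that binds spindle microtubules. Its inner layer, the constitutive centromere-associated network, is assembled on nucleosomes carrying the histone variant CENP-A, and its outer layer, built from the NDC80 and MIS12 complexes with KNL1, grips the microtubule. The spindle assembly checkpoint works from unattached kinetochores and holds the anaphase-promoting complex inactive by sequestering its activator CDC20. In male meiosis, spermatocytes pass through a long prophase before the first division, and kinetochore proteins are needed at its end.

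Over the first wave more members rose than fell. From 8 to 18 dpp, 28 of the 38 (73.7%) changed, 23 of them higher and 5 lower, led by Cenpn, Nuf2 and Cenpu upward and by Cenpb and Cenpa downward. The share that changed was near the background of 68.2% of all 20368 genes called in this comparison, 31.8% higher and 36.3% lower. With median-of-ratios scaling the split of all genes turned from 6487 higher and 7402 lower to 7589 and 5991, and that of the members moved from 23 and 5 to 25 and 3. The median log2 fold change was 0.38 over the members and -0.094 over all genes. The summed level of the 38 was 1092.6 to 1246.6 TPM in the 3 mice of 8 dpp and 1522.2 to 1759.8 TPM in the 5 mice of 18 dpp, and these ranges did not overlap. The median member stood at 23.4 TPM at 8 dpp and 35.6 TPM at 18 dpp, while the median gene of the table stood at 11.4 and 13.0 TPM. Individual values of 8 and 18 dpp did not overlap for 24 of the 38 members, and the same held for 61% of all genes. Changes are given on the log2(TPM + 1) scale, which understates the change of genes at low levels, and come from 1 limma model over the 6 ages with p-values adjusted over all genes. All 13 index barcodes of the 8 to 12 dpp libraries recur at 14 to 18 dpp, so these sets of ages cannot have shared 1 sequencing pool. The labels do not give the pool of each library, so whether 8 and 18 dpp were in different pools is unknown. In the comparison of 8 and 18 dpp, and in that of transcript shares given further on, any difference of pool could not be told apart from age. Over any of the 6 ages 30 members differed, against a background of 77.6% of genes. The 8 that did not pass were Cenph, Cenpf, Zw10, Spc24, Spc25, Pmf1, Ska2 and Mad2l1, of which Cenpf, Zw10, Spc24 and Mad2l1 passed with median-of-ratios scaling (adjusted p = 0.0432, 0.00771, 0.0158 and 0.0124).

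**Figure D1:**
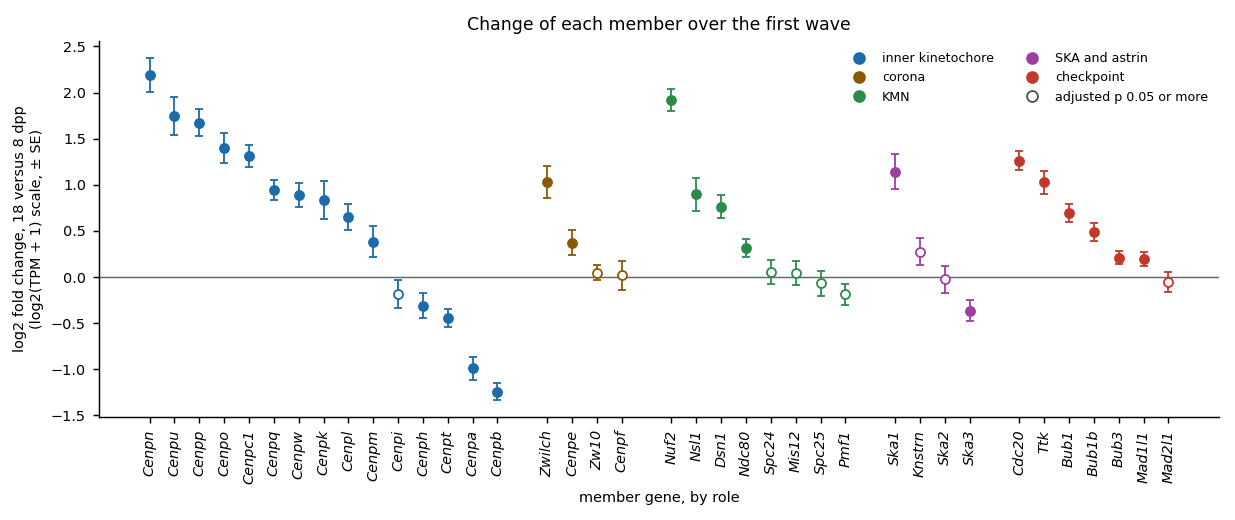
Log2 fold change from 8 to 18 dpp, with its standard error, for each of the 38 members (x axis, grouped by role), where filled points had an adjusted p under 0.05. The inner kinetochore spans the widest range, from 2.19 for Cenpn to -1.24 for Cenpb, and 10 of the 38 points are open.

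Promoter sequence is shown for members at the ends of this range, to let the letters be read beside the values. RefSeq starts (GRCm38.p6) were matched for 34 of the 38 members, in 38 windows of 250 bases before a start, of which the pair before Bub3 overlap in part. Each window was searched on both strands for TTTGAA, the cell cycle genes homology region, for CCAAT, and for the E2F letters TTTCCCGC, TTTGGCGC and TTTCGCGC, and the letters found are in capitals. Cenpn, with the largest rise (chr8:116921490-116921739, plus strand), holds CCAAT and TTTGAA, both on the reverse strand, 18 and 9 bases before the start. Cdc20 (chr4:118437344-118437593, minus strand) holds TTTGAA 18 bases and CCAAT 53 and 8 bases before the start. Cenpb, with the largest fall (chr2:131180068-131180317, minus strand), holds TTTCCCGC 141 bases before the start. Cenpl (chr1:161070517-161070766, plus strand) is shown because it holds 4 of the 5 motifs, and Nuf2 (chr1:169531465-169531714, minus strand) because it rose nearly as far as Cenpn with none of them.
Cenpn: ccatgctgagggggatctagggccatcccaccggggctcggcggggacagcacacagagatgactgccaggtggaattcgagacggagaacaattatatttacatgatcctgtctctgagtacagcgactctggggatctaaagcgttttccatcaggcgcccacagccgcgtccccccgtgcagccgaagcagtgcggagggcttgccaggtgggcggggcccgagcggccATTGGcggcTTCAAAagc
Nuf2: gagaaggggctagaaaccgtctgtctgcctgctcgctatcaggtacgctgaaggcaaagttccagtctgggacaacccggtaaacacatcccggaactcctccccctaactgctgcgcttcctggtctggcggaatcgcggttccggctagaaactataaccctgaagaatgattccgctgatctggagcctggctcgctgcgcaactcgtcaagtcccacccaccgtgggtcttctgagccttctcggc
Cdc20: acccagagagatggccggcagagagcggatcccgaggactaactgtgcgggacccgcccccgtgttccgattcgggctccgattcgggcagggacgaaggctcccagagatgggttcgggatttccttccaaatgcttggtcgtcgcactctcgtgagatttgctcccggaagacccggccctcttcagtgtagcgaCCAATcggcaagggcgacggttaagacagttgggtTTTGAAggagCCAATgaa
Cenpl: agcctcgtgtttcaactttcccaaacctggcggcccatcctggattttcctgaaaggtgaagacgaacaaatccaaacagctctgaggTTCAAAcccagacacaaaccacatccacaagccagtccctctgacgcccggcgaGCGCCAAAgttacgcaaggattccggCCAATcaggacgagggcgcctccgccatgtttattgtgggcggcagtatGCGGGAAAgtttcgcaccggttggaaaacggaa
Cenpb: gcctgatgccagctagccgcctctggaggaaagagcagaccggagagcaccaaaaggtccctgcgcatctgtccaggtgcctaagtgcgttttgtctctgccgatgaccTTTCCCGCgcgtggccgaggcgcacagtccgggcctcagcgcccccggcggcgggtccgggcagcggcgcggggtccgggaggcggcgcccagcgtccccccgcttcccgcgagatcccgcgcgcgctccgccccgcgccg

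Across the 38 member windows CCAAT was found in 55.3%, TTTGAA in 23.7%, TTTCCCGC in 10.5%, TTTGGCGC in 2.63% and TTTCGCGC in 0%. Over all 32851 windows of the same length the shares were 33.8%, 16%, 0.895%, 0.417% and 0.256%. The E2F letters TTTCCCGC lay before Cenpb, Cenpl, Cenpm and Dsn1, which are 1 gene that fell and 3 that rose from 8 to 18 dpp. These matches describe letters only, and none of them were found before Nuf2, Cenpp, Cenpo, Cenpc1, Ndc80 and Mad1l1, which rose, before Cenph and Cenpt, which fell, or before Cenpi, Knstrn and Mad2l1, which did not pass from 8 to 18 dpp.

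Among all genes 68.2% changed from 8 to 18 dpp, 31.8% higher and 36.3% lower, and this background applies to the counts of every role group below. Within the inner kinetochore 14 of 15 members changed, 10 higher and 4 lower, with a median log2 fold change of 0.83. The rises were led by Cenpn (ENSMUSG00000031756, chr8:116921730-116941507, plus strand), whose protein recognises CENP-A nucleosomes. In the 8 dpp mice Cenpn was measured at 20.5, 16.2 and 21.7 TPM, and at 10 dpp at 22.4, 17.9, 19.7, 18.6 and 18.3 TPM. Levels at 12 dpp were 23.1, 22.7, 23.6, 21.6 and 25.6 TPM, and at 14 dpp 28.1, 20.9, 24.6, 28.6 and 28.2 TPM. At 16 dpp they were 53.01, 36.2, 32.5, 37.4 and 48.6 TPM and at 18 dpp 118, 124, 109, 63.9 and 64.4 TPM. No value at 18 dpp fell within the range of any earlier age, and the 2 lowest 18 dpp values belong to mice 4 and 5. The rise from 8 to 18 dpp was 4.58-fold (log2 fold change 2.19 ± 0.18 (SE), adjusted p = 4.02e-11). Cenpl, whose protein forms a dimer with that of Cenpn, rose less, from 10.3 ± 1.07 TPM (SD, n = 3) to 17.02 ± 3.37 TPM (SD, n = 5), a log2 fold change of 0.65 ± 0.14.

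The genes of 2 proteins that mark centromeric chromatin fell. Cenpb (ENSMUSG00000068267, chr2:131175182-131180067, minus strand) encodes a protein that binds a short box in centromeric satellite DNA, and it was the most abundant member at 8, 10 and 12 dpp. Its levels were 119, 126 and 113 TPM at 8 dpp and 125, 124, 118, 130.2 and 122 TPM at 10 dpp. They were 119, 108, 95.6, 106 and 99.3 TPM at 12 dpp and 100.3, 100.4, 93.4, 93.8 and 89.1 TPM at 14 dpp. At 16 dpp they were 69.96, 77.1, 90.7, 76.5 and 71.2 TPM, and at 18 dpp 45.9, 48.1, 42.1, 58.6 and 55.9 TPM. Every 18 dpp mouse lay below every mouse of the 5 earlier ages, and the fall from 8 dpp was 2.37-fold (log2 fold change -1.24 ± 0.089 (SE), adjusted p = 2.32e-12). Exons of Cenpb overlap those of Spef1 on the same strand, so reads there could be counted for either gene. Cenpa, the centromeric histone itself, read 74.5, 65.2 and 79.1 TPM at 8 dpp and 30.4, 30.8, 33.9, 45.5 and 42.5 TPM at 18 dpp. Its highest 18 dpp value stayed below its lowest 8 dpp value, a 1.98-fold fall (log2 fold change -0.99 ± 0.12 (SE), adjusted p = 8.50e-08). Cenpc1, encoding the protein that bridges CENP-A nucleosomes and the outer kinetochore, rose instead, with 18.7, 18.01 and 18.4 TPM at 8 dpp and 48.97, 49.9, 50.6, 40.6 and 45.4 TPM at 18 dpp (log2 fold change 1.31 ± 0.12 (SE), adjusted p = 2.07e-10).

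The 4 members of the CENP-O group, a peripheral part of the inner kinetochore, all rose. Cenpu (ENSMUSG00000031629, chr8:46552028-46580007, plus strand) was at 9.78, 6.73 and 9.67 TPM at 8 dpp and 7.68, 10.6, 8.69, 11.01 and 10.8 TPM at 10 dpp. It was at 8.46, 11.2, 12.9, 12.7 and 13.03 TPM at 12 dpp and 15.7, 11.8, 8.72, 17.6 and 12.4 TPM at 14 dpp. At 16 dpp it reached 24.5, 15.9, 16.6, 14.4 and 16.03 TPM and at 18 dpp 36.96, 40.8, 36.9, 22.9 and 23.6 TPM. Mouse 1 of 16 dpp overlapped the 18 dpp values and the other 4 mice of 16 dpp did not, and the change from 8 dpp was 3.36-fold (log2 fold change 1.75 ± 0.21 (SE), adjusted p = 3.03e-08). Cenpp (ENSMUSG00000021391, chr13:49464023-49652785, minus strand) gave 18.6, 12.2 and 13.1 TPM at 8 dpp and 13.7, 13.6, 15.3, 12.9 and 13.4 TPM at 10 dpp. It gave 18.5, 17.4, 24.1, 20.1 and 19.8 TPM at 12 dpp and 21.4, 15.99, 28.01, 22.3 and 20.2 TPM at 14 dpp. Later values were 44.3, 31.7, 30.7, 28.9 and 33.8 TPM at 16 dpp and 47.3, 57.5, 49.1, 42.9 and 44.7 TPM at 18 dpp. Cenpp rose 3.19-fold in all (log2 fold change 1.67 ± 0.15 (SE), adjusted p = 1.10e-10), in 3 of the 5 steps. Cenpo rose by a log2 fold change of 1.40 ± 0.16 (adjusted p = 1.59e-08) and Cenpq by 0.94 ± 0.10 (adjusted p = 7.72e-09). Exons of Cenpo, Cenpp, Cenpq and Cenpu overlap exons of other genes on the opposite strand (Adcy3 and Ptrhd1, Ippk and Aspn, Mut, and Primpol), and the strand of the libraries is not stated, so part of the reads there could belong to those genes. The same holds for Cenpk (Ppwd1), Cenpt (Tsnaxip1), Zwilch (Lctl), Mis12 (Derl2), Cdc20 (Elovl1) and, with antisense genes, Ska2, Knstrn and Mad1l1.

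In the CENP-H, CENP-I, CENP-K and CENP-M group, which connects the inner layers, the members diverged. Cenpk rose (0.83 ± 0.21, adjusted p = 0.000834) and Cenpm rose weakly (0.38 ± 0.17, adjusted p = 0.046), while Cenph fell weakly (-0.31 ± 0.14, adjusted p = 0.0446). Cenpi, which lies on the X chromosome (ENSMUSG00000031262, chrX:134308084-134362639, plus strand), was at 8.7, 8.4 and 10.5 TPM at 8 dpp, 14.96, 11.1, 10.6, 15.5 and 12.6 TPM at 14 dpp and 6.33, 8.12, 6.18, 9.73 and 10.2 TPM at 18 dpp. Its 8 and 18 dpp ranges overlapped and that change did not pass the test (adjusted p = 0.289), but it fell from 14 to 16 dpp. With mice 1 to 3 of each age, the change from 8 to 18 dpp passed as a fall (-0.38, adjusted p = 0.0206). In the histone-fold pair that offers a second attachment to the outer kinetochore, Cenpw rose (0.89 ± 0.13, adjusted p = 9.36e-07) and Cenpt fell (-0.44 ± 0.094, adjusted p = 0.000167). The Cenph and Cenpm calls were lost when any of 6 and any of 14 of the 28 mice, respectively, was left out, with adjusted p up to 0.116 (without mouse 1 of 18 dpp) and 0.164 (without mouse 1 of 8 dpp). The Cenph call was also absent with median-of-ratios scaling (adjusted p = 0.355).

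**Figure D2:**
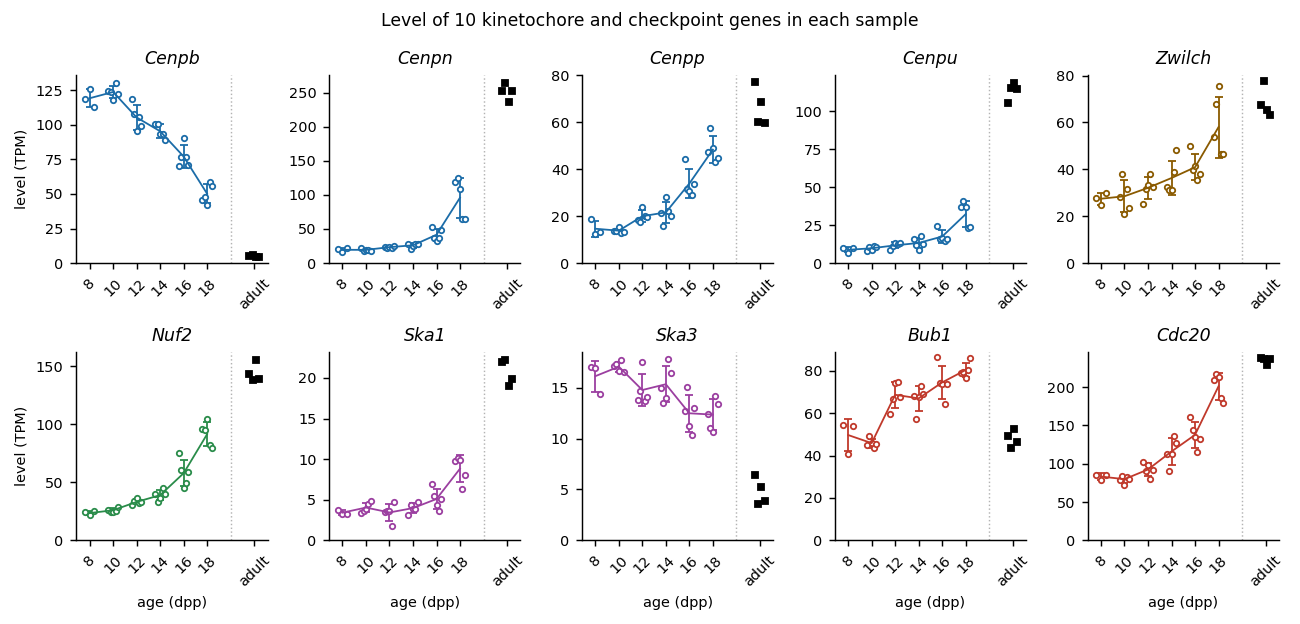
Level in TPM (y axis) of 10 members in each juvenile mouse by age (open circles, with a line through the means and bars of 1 SD) and in each adult pool (black squares, from a table normalized separately). Cenpn rises from at most 28.6 TPM at 14 dpp to 63.9 to 124 TPM at 18 dpp, Cenpb falls from at least 113 TPM at 8 dpp to at most 58.6 TPM at 18 dpp, and adult Cenpb lies at 4.56 to 5.56 TPM.

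At the corona, the outermost layer that captures microtubules and carries dynein, 2 of 4 members rose and none fell (median log2 fold change 0.21). Zwilch (ENSMUSG00000032400, chr9:64137144-64173104, minus strand) encodes a subunit of the complex that brings dynein and MAD1 to unattached kinetochores. Its levels were 27.7, 24.8 and 29.8 TPM at 8 dpp and 28.4, 38.02, 20.97, 31.8 and 23.4 TPM at 10 dpp. At 12 dpp they were 25.2, 31.6, 33.1, 38.1 and 32.4 TPM, and at 14 dpp 32.4, 30.97, 31, 38.9 and 48.2 TPM. At 16 dpp they were 50.01, 39.6, 41.5, 35.3 and 37.9 TPM and at 18 dpp 53.96, 67.7, 75.3, 46.3 and 46.7 TPM. The 18 dpp mice all lay above the 8 dpp mice, but mice 4 and 5 of 18 dpp lay within the 14 and 16 dpp ranges. Zwilch rose 2.04-fold (log2 fold change 1.03 ± 0.18 (SE), adjusted p = 1.05e-05). Zw10, its partner in that complex, was at 31.7 ± 3.24 TPM (SD, n = 3) and 32.8 ± 1.32 TPM (SD, n = 5) and did not pass the test (adjusted p = 0.621), but passed as a rise with median-of-ratios scaling (0.22, adjusted p = 0.0276). Cenpe, a kinesin motor, rose by 0.37 ± 0.14 (adjusted p = 0.017), a call lost without mouse 2 of 8 dpp (adjusted p = 0.112) or without mouse 1 or 2 of 18 dpp. Cenpf, a large coiled-coil protein of the corona, stood at 35.2 ± 6.93 and 35.7 ± 7.23 TPM (SD) at these ages (adjusted p = 0.93).

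The NDC80 and MIS12 complexes each contained members that rose beside members that did not pass between 8 and 18 dpp. Of the 8, 4 were higher and none lower, with a median log2 fold change of 0.19. Nuf2 (ENSMUSG00000026683, chr1:169497934-169531464, minus strand), a microtubule-binding arm of the NDC80 complex, was measured at 24.03, 21.4 and 24.8 TPM at 8 dpp and 26.4, 24.6, 24.2, 25.6 and 28.6 TPM at 10 dpp. It stood at 30.4, 33.5, 36.1, 31.8 and 33.4 TPM at 12 dpp and 39.8, 33.3, 36.5, 45.1 and 39.6 TPM at 14 dpp. It reached 74.8, 60.6, 45.1, 49.7 and 58.8 TPM at 16 dpp and 96.1, 95.3, 104, 82.2 and 79.4 TPM at 18 dpp. The values of 10, 12, 16 and 18 dpp form 4 ranges that do not overlap one another, and the whole rise was 3.78-fold (log2 fold change 1.92 ± 0.12 (SE), adjusted p = 9.81e-14). Ndc80, the other microtubule-binding arm, rose far less, from 34.03 ± 4.36 TPM (SD, n = 3) to 42.6 ± 5.98 TPM (SD, n = 5), or 0.31 ± 0.10 on the log2 scale (adjusted p = 0.00706), and this call was lost without mouse 2 of 8 dpp (adjusted p = 0.0971). The inner pair of the complex, Spc24 and Spc25, had log2 fold changes of 0.06 ± 0.13 and -0.07 ± 0.13 with adjusted p of 0.711 and 0.656.

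Of the MIS12 complex, which joins the NDC80 complex to the inner kinetochore, Nsl1 rose from 6.85 ± 1.22 to 13.6 ± 1.82 TPM (SD) and Dsn1 from 38.9 ± 7.91 to 66.1 ± 6.82 TPM (SD), with log2 fold changes of 0.90 ± 0.18 and 0.76 ± 0.13 and adjusted p of 0.0001 and 5.54e-06. Mis12 stood at 23.4 ± 2.1 and 24.3 ± 3.42 TPM and Pmf1 at 63.7 ± 6.35 and 55.8 ± 6.31 TPM at the same ages. Neither passed the test between 8 and 18 dpp (adjusted p = 0.766 and 0.148).

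Among SKA and astrin genes, whose products steady kinetochores on shortening microtubules, 1 of 4 rose and 1 fell (median log2 fold change 0.13). Ska1 (ENSMUSG00000036223, chr18:74195299-74207818, minus strand), which holds the microtubule-binding domain of the SKA complex, was the least abundant member at every age from 8 to 16 dpp. Its levels were 3.76, 3.25 and 3.19 TPM at 8 dpp, 3.36, 3.64, 3.88, 4.48 and 4.79 TPM at 10 dpp and 3.43, 3.65, 3.62, 1.76 and 4.66 TPM at 12 dpp. They were 3.06, 4.37, 3.89, 3.82 and 4.68 TPM at 14 dpp, 6.94, 5.4, 4.38, 3.59 and 5.12 TPM at 16 dpp and 9.72, 10.2, 9.93, 6.32 and 7.99 TPM at 18 dpp. Only mouse 4 of 18 dpp lay within the range of another age, that of 16 dpp, and the rise from 8 dpp was 2.21-fold (log2 fold change 1.14 ± 0.19 (SE), adjusted p = 6.82e-06).

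Ska3 (ENSMUSG00000021965, chr14:57806561-57826185, minus strand), another SKA subunit, fell. It was at 17.1, 16.9 and 14.4 TPM at 8 dpp, 17.1, 17.4, 16.6, 17.7 and 16.5 TPM at 10 dpp and 13.8, 14.7, 17.5, 13.7 and 14.1 TPM at 12 dpp. It was at 14.9, 13.5, 14.03, 17.8 and 16.4 TPM at 14 dpp, 12.7, 15.1, 11.2, 10.4 and 12.97 TPM at 16 dpp and 12.4, 11.1, 10.7, 14.2 and 13.4 TPM at 18 dpp. The 8 and 18 dpp values did not overlap, though they lay close together (log2 fold change -0.36 ± 0.11 (SE), adjusted p = 0.0053). With median-of-ratios scaling this fall did not pass the test (log2 fold change -0.20, adjusted p = 0.0819). Exons of Ska3 overlap those of Sap18 on the opposite strand. Ska2 (-0.02 ± 0.15, adjusted p = 0.892) and Knstrn, the partner of astrin (0.28 ± 0.15, adjusted p = 0.0945), did not pass between 8 and 18 dpp. Knstrn passed with median-of-ratios scaling (0.45, adjusted p = 0.00989), with mice 1 to 3 of each age (adjusted p = 0.0319), without mouse 3 of 8 dpp (adjusted p = 0.0380) and without mouse 4 of 18 dpp (adjusted p = 0.0344).

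Checkpoint genes rose in 6 of 7 cases and none fell, with a median log2 fold change of 0.49. Cdc20 (ENSMUSG00000006398, chr4:118432901-118437352, minus strand), the activator of the anaphase-promoting complex that the checkpoint restrains, was the most abundant member from 14 to 18 dpp. Its levels were 85.5, 78.3 and 85.9 TPM at 8 dpp and 78.9, 83.7, 72.8, 83.2 and 80.6 TPM at 10 dpp. At 12 dpp they were 102, 90.2, 97.8, 80.6 and 91.8 TPM and at 14 dpp 113, 90.8, 113, 136 and 127 TPM. At 16 dpp they were 161, 144, 135, 115 and 132 TPM and at 18 dpp 209.8, 218, 214, 186 and 179 TPM. The 18 dpp mice stood above every mouse of the other ages, and the rise was 2.4-fold (log2 fold change 1.26 ± 0.10 (SE), adjusted p = 3.64e-11). Mad2l1, whose product binds and sequesters CDC20, was at 61.4, 56.5 and 71.3 TPM at 8 dpp and 55.6, 50.7, 56.5, 63.6 and 80.5 TPM at 18 dpp. These ranges overlap and the change did not pass the test (log2 fold change -0.05 ± 0.11, adjusted p = 0.691).

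Bub1 (ENSMUSG00000027379, chr2:127801122-127831865, minus strand), a kinase that recruits other checkpoint proteins, followed a different course. It was at 54.4, 40.8 and 53.9 TPM at 8 dpp and 45.02, 49.4, 45.9, 43.7 and 45.5 TPM at 10 dpp. It was at 59.7, 66.96, 74.4, 74.7 and 67.8 TPM at 12 dpp and 67.9, 57.4, 67.8, 72.9 and 69.2 TPM at 14 dpp. Later values were 86.8, 74.1, 73.7, 64.4 and 73.9 TPM at 16 dpp and 79.2, 79.6, 76.8, 80.5 and 85.98 TPM at 18 dpp. All 5 mice of 12 dpp lay above all mice of 8 and 10 dpp, and no later step passed the test. The change from 8 to 18 dpp was 1.62-fold (log2 fold change 0.69 ± 0.093 (SE), adjusted p = 2.31e-07). With median-of-ratios scaling the steps from 14 to 16 and from 16 to 18 dpp passed too (adjusted p = 0.0408 and 0.00293). Ttk, the kinase at the head of the checkpoint, rose 2.04-fold (adjusted p = 8.40e-08). Bub1b, a CDC20-binding component, rose 1.41-fold (adjusted p = 0.000102), Bub3 1.16-fold (adjusted p = 0.00755) and Mad1l1, the kinetochore receptor of MAD2, 1.15-fold (adjusted p = 0.0221). The call of Mad1l1 was lost without mouse 2 of 8 dpp (adjusted p = 0.106) or mouse 3 of 18 dpp (adjusted p = 0.0531).

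The 5 steps of 2 days carried unequal parts of these changes. From 8 to 10 dpp no member passed the limma test, against 1.2% of all genes (0.977% higher and 0.226% lower), and 3 members (Cenpt, Cenpq and Mad1l1) had an unadjusted p under 0.05. From 10 to 12 dpp, when 6 of 6 early meiotic prophase markers rose and 4 of 8 Sertoli and 2 of 7 spermatogonial markers fell, 6 members (15.8%) changed against 21.4% of genes, with 12% of all genes higher and 9.39% lower. With median-of-ratios scaling the split of all genes turned from 2450 higher and 1912 lower to 2226 and 2350. The members again numbered 4 higher and 2 lower, but 1 of the lower members was exchanged for another. Bub1 (0.57 ± 0.080, adjusted p = 8.44e-06), Cenpp (0.50 ± 0.13, adjusted p = 0.00552), Cenpq (0.42 ± 0.090, adjusted p = 0.00109) and Nuf2 (0.34 ± 0.10, adjusted p = 0.0161) were higher at 12 dpp. Cenpb (-0.23 ± 0.077, adjusted p = 0.0302) and Bub3 (-0.17 ± 0.059, adjusted p = 0.0385) were lower. The median log2 fold change in this step was 0.10 over the members and 0.015 over all genes. Each of the Cenpb and Bub3 calls was lost on leaving out any of 5 mice, with adjusted p up to 0.0889 (without mouse 3 of 12 dpp) and 0.124 (without mouse 4 of 12 dpp). Median-of-ratios scaling lost the Bub3 call (adjusted p = 0.0519) and gained a fall of Cenpa (-0.28, adjusted p = 0.0428). With mice 1 to 3 of each age the calls of Cenpb, Cenpp and Bub3 were lost (adjusted p = 0.154, 0.119 and 0.0599). Those mice gained a rise of Cdc20 (0.30, adjusted p = 0.0245).

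From 12 to 14 dpp no member passed the limma test, against 0.172% of genes (0.157% higher and 0.0147% lower), and 4 had an unadjusted p under 0.05 (Cdc20, Cenpl, Cenpc1 and Nuf2). Without mouse 2 of 14 dpp, Cdc20 passed in this step (adjusted p = 0.0314). Of the 5 steps, this is the one that crosses between the 2 sets of ages with recurring barcodes. The labels do not say between which ages the pool changed.

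From 14 to 16 dpp, when 6 of 7 late pachytene markers rose and 6 of 8 Sertoli and 4 of 7 spermatogonial markers fell, 10 members (26.3%) changed against 24% of genes (12.7% higher and 11.3% lower), 6 higher and 4 lower. Cenpn (0.64 ± 0.16, adjusted p = 0.00406), Cenpp (0.63 ± 0.13, adjusted p = 0.00055) and Nuf2 (0.55 ± 0.10, adjusted p = 0.000229) rose most, beside Cenpw, Cenpq and Cdc20 (log2 fold changes 0.45 ± 0.11, 0.37 ± 0.090 and 0.25 ± 0.090, adjusted p = 0.00432, 0.00307 and 0.0443). Cenpi fell most (-0.52 ± 0.13, adjusted p = 0.00441), beside Mis12, Cenpb and Ska3 (-0.33 ± 0.11, -0.31 ± 0.077 and -0.28 ± 0.096, adjusted p = 0.031, 0.00442 and 0.0338). The Cdc20, Mis12 and Ska3 calls were lost when any of 11, 6 and 5 mice, respectively, was left out. Their adjusted p then reached 0.168 for Cdc20 (without mouse 2 of 14 dpp), 0.104 for Mis12 (without mouse 3 of 14 dpp) and 0.102 for Ska3 (without mouse 4 of 14 dpp). With median-of-ratios scaling the split of all genes in this step moved from 2594 higher and 2296 lower to 2860 and 1454, and the members from 6 and 4 to 9 and 2.

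The step from 16 to 18 dpp held the most calls, while 7 of 7 late pachytene markers rose and 8 of 8 Sertoli and 7 of 7 spermatogonial markers fell. Here 21 members (55.3%) changed against 54% of genes, 18 higher and 3 lower, where 23.4% of all genes were higher and 30.6% lower. The median log2 fold change was 0.22 over the members and -0.11 over all genes. Cenpn rose most (1.15 ± 0.16, adjusted p = 2.97e-06), followed by Cenpu (0.83 ± 0.18), Cenpo (0.83 ± 0.14), Ska1 (0.70 ± 0.16), Nuf2 (0.67 ± 0.10), Cenpc1 (0.58 ± 0.10), Cenpl (0.56 ± 0.12) and Cdc20 (0.55 ± 0.090), with adjusted p no higher than that of Ska1, 0.000914. Also higher were Cenpp, Ttk, Zwilch, Ndc80, Cenpw, Cenpe, Dsn1, Bub1b, Cenpq and Mad1l1, with log2 fold changes between 0.20 ± 0.065 for Mad1l1 and 0.51 ± 0.13 for Cenpp. Cenpb (-0.62 ± 0.077, adjusted p = 1.62e-06), Cenpa (-0.50 ± 0.11, adjusted p = 0.000377) and Cenpt (-0.21 ± 0.082, adjusted p = 0.0298) were lower. The Cenpt call was lost without any of 5 mice, with adjusted p up to 0.0835 (without mouse 2 of 18 dpp), and with median-of-ratios scaling (adjusted p = 0.606). That scaling moved the split of all genes in this step from 4775 higher and 6227 lower to 6193 and 3630, and that of the members from 18 and 3 to 24 and 2. With mice 1 to 3 of each age alone, which leaves out mice 4 and 5 of 18 dpp, 22 members changed in this step (16 higher, 6 lower) and 30 between 8 and 18 dpp (23 higher, 7 lower). With the same mice, 11670 and 14414 of all 20368 genes were called, respectively. In the step from 16 to 18 dpp these mice added falls of Mad2l1 (-0.36, adjusted p = 0.00672), Pmf1 (-0.33, adjusted p = 0.00654), Cenph and Cenpm and lost the calls of Cenpq, Cenpt and Mad1l1. Between 8 and 18 dpp they added falls of Cenpi and Pmf1 (-0.28, adjusted p = 0.0158) and the rise of Knstrn and lost the call of Cenpm (adjusted p = 0.414). Mad2l1 also fell in the step from 16 to 18 dpp without mouse 5 of 18 dpp alone (-0.26, adjusted p = 0.00765).

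Where paired genes changed unequally, the ratio of their levels moved with age. The pairs given are part of a longer list, and not every pair belongs to 1 complex. These ratios are given as a description with no test. The ratio of Nuf2 to Spc25, subunits of 1 complex, was 0.514 to 0.65 in the 8 dpp mice, 0.836 to 1.07 at 14 dpp and 2.0 to 2.53 at 18 dpp, with no overlap between these ages. The ratio of Spc24 to Spc25 was 0.394 to 0.637 at 8 dpp and 0.401 to 0.619 at 18 dpp, and these ranges overlapped. So did those of Mad1l1 to Mad2l1, at 0.403 to 0.487 and 0.392 to 0.643, while the remaining pairs of the list separated these ages. For Cenpn over Cenpl the ratio was 1.54 to 2.22 at 8 dpp and 4.58 to 6.13 at 18 dpp. For Cenpc1 over Cenpa it was 0.232 to 0.276 and 0.892 to 1.62, and for Cenpw over Cenpt 0.3 to 0.398 and 0.621 to 1.17. Each of these 3 pairs separated the 2 ages completely. Levels of 61% of all genes taken singly did so too, and no such share was computed for ratios of gene pairs. The ratio of Ska1 to Ska3 went from 0.192 to 0.222 to 0.445 to 0.93, and that of Cdc20 to Mad2l1 from 1.2 to 1.39 to 2.23 to 4.3. Between these 2 ages the ratio of Cenpo to Cenpp moved less, from 0.77 to 0.868 at 8 dpp to 0.526 to 0.76 at 18 dpp, although here too the ranges did not overlap. That ratio was 0.513 to 1.13 at 14 dpp, 0.387 to 0.624 at 16 dpp and 0.849 to 1.18 in the adult pools.

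**Figure D3:**
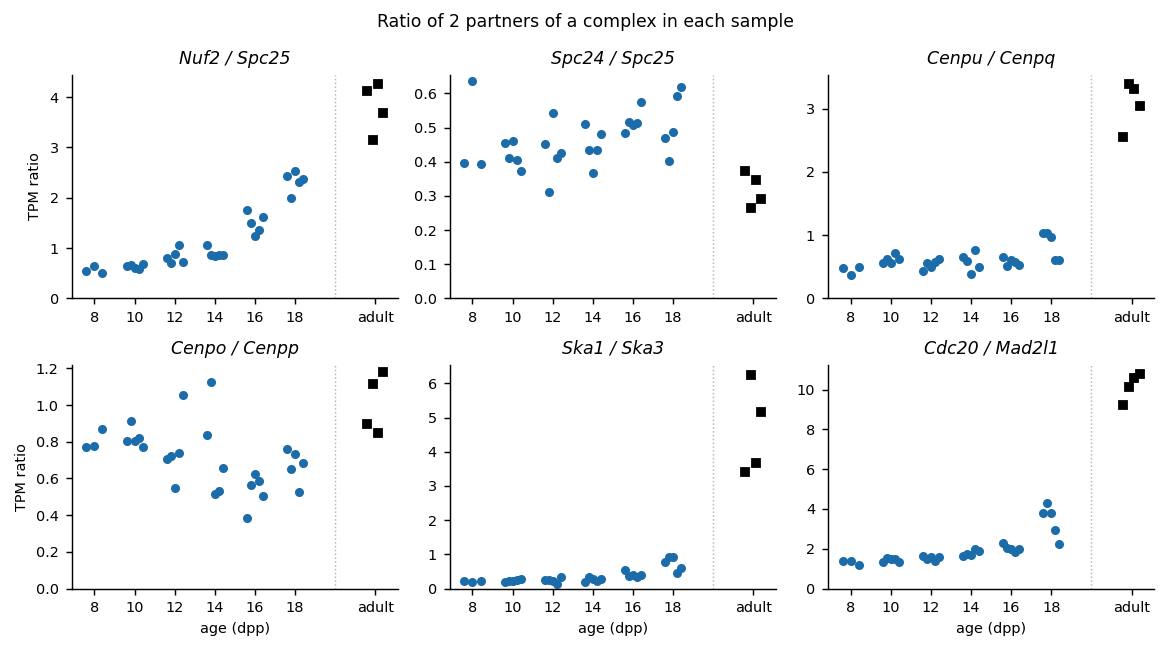
Ratio of the TPM of 2 partners (y axis) in each juvenile mouse by age (blue circles) and in each adult pool (black squares, from a table normalized separately). Nuf2 over Spc25 moves from 0.514 to 0.650 at 8 dpp to 2.00 to 2.53 at 18 dpp, while Spc24 over Spc25 stays between 0.311 and 0.637 in all 28 mice.

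Transcript shares could be examined for 14 members with 41 transcripts, as genes whose mean level reached 3 TPM among the 8 and 10 dpp mice and again among the 16 and 18 dpp mice, with at least 2 transcripts with a mean of 1 TPM or more. Among these, 2 transcripts passed the test with a change of at least 20 points of the gene total, against 2.36% of 23813 transcripts, and both belong to Cenpo. Cenpo-205 (ENSMUST00000140975, chr12:4211667-4234294, minus strand, 7 exons, 894 coding bases in GENCODE M21) held 52.9, 88.5 and 68.0% of Cenpo at 8 dpp and 64.5, 61.8, 57.1, 71.8 and 70.3% at 10 dpp. It held 45.8, 37.0, 36.3, 37.9 and 36.5% at 16 dpp and 18.2, 18.4, 23.4, 38.03 and 24.1% at 18 dpp. The 2 groups did not overlap, and the share fell by 35.3 points (SE 4.70, adjusted p = 6.50e-05). Cenpo-201 (ENSMUST00000020981, chr12:4213482-4233965, minus strand, 6 exons, 531 coding bases) held 5.44, 0 and 13.2% at 8 dpp and 11.2, 6.91, 5.84, 4.62 and 0% at 10 dpp. It held 23.2, 27.5, 28.9, 16.6 and 40.3% at 16 dpp and 36.4, 24.7, 17.8, 23.0 and 31.8% at 18 dpp. Here too the groups did not overlap, with a gain of 21.1 points (SE 3.07, adjusted p = 1.41e-04).

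As levels, Cenpo-205 was at 7.88 ± 0.41 TPM (SD, n = 3) at 8 dpp and 7.56 ± 0.91 TPM (SD, n = 5) at 18 dpp, while Cenpo-201 was at 0.78, 0 and 1.5 TPM at 8 dpp and 13.1, 9.25, 6.42, 5.18 and 9.76 TPM at 18 dpp. The other Cenpo transcripts summed to 3.06 ± 2.57 TPM and 16.2 ± 5.30 TPM at these ages. The means of Cenpo-205 at these ages differed by less than their SD, and the other transcripts carried the higher level of Cenpo at 18 dpp. In GENCODE M21, 1298 of the 4348 exon bases of Cenpo-205 are shared with Adcy3 and Ptrhd1 on the opposite strand, against 44 of the 2037 exon bases of Cenpo-201, so in libraries of unstated strand some reads of Cenpo-205 could stem from those genes. Leaving out mouse 5 of 16 dpp left 1 called transcript, and leaving out mouse 4 of 16 dpp gave 4.

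**Figure D4:**
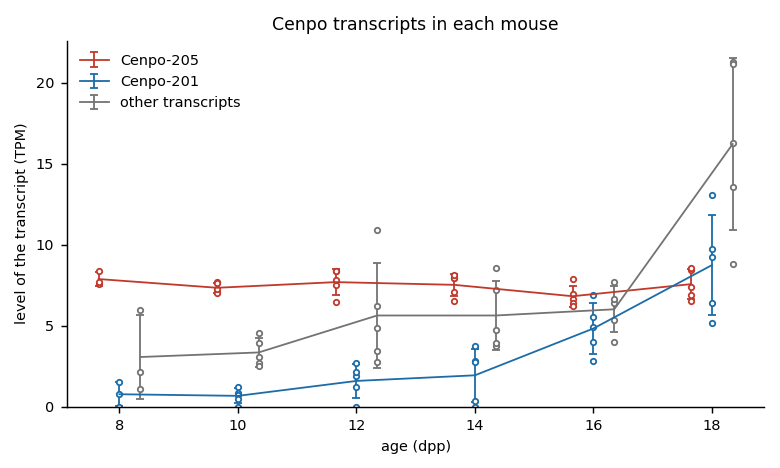
Level in TPM (y axis) of Cenpo-205, Cenpo-201 and the sum of the other Cenpo transcripts in each juvenile mouse by age (points, offset sideways, with a line through the means and bars of 1 SD). Cenpo-205 stays between 6.23 and 8.58 TPM in all 28 mice, and Cenpo-201 and the other transcripts climb to means of 8.74 and 16.2 TPM at 18 dpp.

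Adult pachytene and diplotene spermatocytes carried nearly the whole set. At 3 TPM or more in all 4 pools were 36 of 38 members, against 55.7% of the 20366 genes of the juvenile gene table that could be looked up there. The 2 below were Cenpa and Cenpi. The adult table was normalized separately, so its levels are set beside those of 18 dpp with no test. Summed over the 38 members the mean level was 1946.2 TPM, and the median member stood at 36.8 TPM, where the median gene of the same list stood at 5.92 TPM. Cenpn led at 252, 264, 236 and 252 TPM, followed by Cdc20 at 238, 237, 229.6 and 237 TPM, Nuf2 at 143, 138, 156 and 139 TPM and Cenpu at 106, 115, 118 and 115 TPM. The other members given above by mouse were at 76.96, 60.2, 68.5 and 59.8 TPM (Cenpp), 67.3, 77.6, 65.3 and 63.4 TPM (Zwilch), 21.9, 22.2, 19.1 and 19.9 TPM (Ska1) and 49.1, 43.4, 52.4 and 46.2 TPM (Bub1). For Cenpn, Cdc20, Nuf2, Cenpu, Cenpp and Ska1 every adult value exceeded every 18 dpp value, whereas Bub1 was lower in every pool than in any 18 dpp mouse and Zwilch overlapped.

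At the other end stood Cenpb, Ska3 and Cenpa, which fell from 8 to 18 dpp, and Cenpi, which fell only in the step from 14 to 16 dpp. Adult Cenpb was at 4.98, 5.56, 4.75 and 4.56 TPM and Ska3 at 6.45, 3.56, 5.2 and 3.85 TPM. Cenpa was at 1.83, 1.79 and 0.68 TPM in 3 pools and was listed at 0 in pool 2. X-linked Cenpi was at 1.33, 0.55, 1.54 and 0.93 TPM. Each of these genes was lower in every adult pool than in any juvenile mouse. Mad2l1, which was not called between juvenile ages with all mice in the model, was at 25.8, 23.4, 21.7 and 22 TPM in the adult. It was below every juvenile mouse, as were Cenpm (4.43 to 5.99 TPM), Cenph (8.04 to 12.1 TPM), Cenpt (10.6 to 14.8 TPM), Mis12 (11.8 to 14.5 TPM), Pmf1 (20.5 to 33.3 TPM) and Ska2 (6.8 to 10.2 TPM). For Spc24 (11.02 to 12.9 TPM), Zw10 (24.7 to 28.6 TPM) and Nsl1 (8.64 to 10.3 TPM) the pools stood below every 18 dpp mouse, but not below every younger mouse. Adult Cenpk (11.9 to 16.4 TPM) overlapped its 18 dpp range of 15.13 to 19.34 TPM.

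The remaining members held levels of 56.7 to 60.5 TPM (Cenpc1), 58.1 to 70.6 TPM (Cenpo), 39.5 to 46.1 TPM (Cenpw), 34.02 to 41.4 TPM (Cenpq) and 24.04 to 27.8 TPM (Cenpl) in the inner kinetochore. In the outer layers they held 77.2 to 85.4 TPM (Dsn1), 52.3 to 67.2 TPM (Ndc80), 47.3 to 53.99 TPM (Knstrn), 39.97 to 42.9 TPM (Cenpf), 34.8 to 43.7 TPM (Spc25) and 33.1 to 37.5 TPM (Cenpe). Among checkpoint genes Bub3 was at 86.4 to 90.8 TPM, Bub1b at 83.1 to 89.8 TPM, Ttk at 74.5 to 79.4 TPM and Mad1l1 at 34.6 to 37.6 TPM. The Nuf2 to Spc25 ratio was 3.15 to 4.26 in the pools, that of Cenpu to Cenpq 2.55 to 3.39 and that of Cdc20 to Mad2l1 9.25 to 10.8, each above its 18 dpp range.

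**Figure D5:**
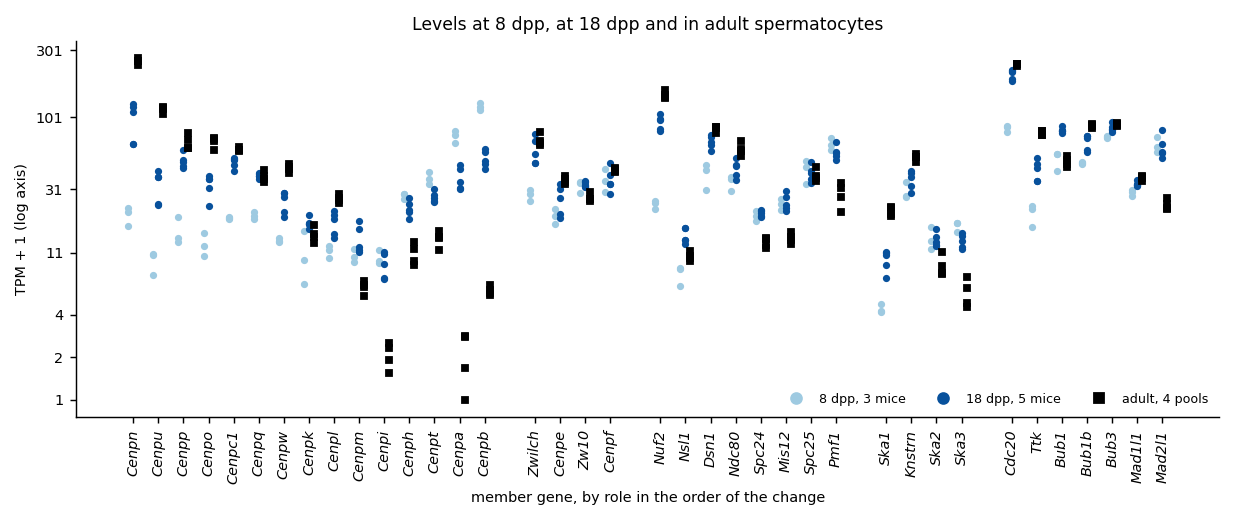
Level of each of the 38 members as TPM + 1 on a log axis in the 3 mice of 8 dpp (light blue), the 5 mice of 18 dpp (dark blue) and the 4 adult pools (black squares, from a table normalized separately), by role. Adult squares lie highest for Cenpn, at 236 to 264 TPM, and lowest for Cenpa and Cenpi, at 0 to 1.83 TPM.

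Genes that work beside these members were read from 4 further lists of 39 genes, all present in the gene table. As background to their counts, 31.8% of all genes were higher and 36.3% lower at 18 than at 8 dpp. Of 8 genes for loading CENP-A and for other centromere proteins, 6 rose from 8 to 18 dpp, with Itgb3bp, which encodes CENP-R of the CENP-O group, rising most (log2 fold change 2.17 ± 0.21 (SE), adjusted p = 9.22e-10). Of 11 other outer kinetochore and checkpoint genes 4 rose and 7 fell. The largest rise was that of Knl1, whose protein builds the outer layer with the NDC80 and MIS12 complexes (log2 fold change 0.92 ± 0.13 (SE), adjusted p = 7.96e-07). The largest fall was that of Clasp1, which encodes a microtubule-stabilising protein (log2 fold change -0.69 ± 0.090 (SE), adjusted p = 1.56e-07). Of 17 genes of the anaphase-promoting complex, its activator Fzr1, securin and separase, 6 rose and 6 fell, the extremes being the securin gene Pttg1 (log2 fold change 0.96 ± 0.092 (SE), adjusted p = 5.85e-10) and the subunit Anapc1 (log2 fold change -0.56 ± 0.090 (SE), adjusted p = 3.44e-06). Of 3 protectors of centromeric cohesion, 2 rose and none fell, led by the meiosis-specific Meikin (log2 fold change 4.13 ± 0.24 (SE), adjusted p = 4.56e-14). The median log2 fold changes of the 4 lists were 0.80, -0.33, -0.047 and 1.36, beside 0.38 for the 38 members and -0.094 for all genes.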

How the data were processed

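Poly(A) RNA-seq of mixed germ cells from 28 juvenile mice and of 4 adult spermatocyte pools was re-analysed from the deposited tables. Per the submitters' processing notes and the study's methods, the authors aligned reads with Bowtie 1.0.0 to a mouse (mm10) transcriptome that combined Ensembl release 75, NONCODE 4 and piRNA precursors and estimated levels with RSEM 1.2.8, 1 value per sample. The deposited tables hold TPM per gene or transcript, so read depth is unknown and no counting interval could be given. The juvenile gene table was found to hold exp(log2(TPM + 1)) - 1 in place of TPM, on values that summed to 14108255 to 18601026 per mouse. These were converted back, after which 20288 of 20368 genes lay within 0.2 TPM of their summed transcripts in every mouse and the members within 0.02 TPM. A column of that table in which the authors assign each gene to a meiotic substage was not used. The tests had been designed for TPM and were run on the converted values.

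Samples were grouped by the age in the labels, and mice are numbered as in their descriptions. Levels as log2(TPM + 1) were compared with limma 3.58.1 (R 4.3.3), with 6 ages in 1 model, moderated variances with a trend, and Benjamini-Hochberg adjustment over all 20368 genes at 0.05. Transcript shares (percent of the gene total) were compared with limma between 16 and 18 dpp and 8 and 10 dpp. Adult levels were not tested against juvenile levels because the tables were normalized separately. On simulated data, 95% of 200 genes changed by 1 on the log2 scale from 8 to 18 dpp were recovered among 20368 genes, and 6.86% of calls were false. The changed genes were drawn from those at higher levels, and far fewer were changed than were called in these data. For usage, 96.5% of 200 transcripts changed by 25 points were recovered among 5000, with 0% of calls false. Every simulated transcript had the same spread, smaller than that of Cenpo-205 (SD 10.9 points at 8 and 10 dpp, 9.63 points at 16 and 18 dpp). These rates therefore do not give the recovery for members with a wider spread or a lower level. Pearson's r between mice of an age was 0.947 to 0.984 on the log2 scale (53 pairs).

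Values of every mouse are given for the largest rise and fall of each role group from 8 to 18 dpp and for the 2 largest changes in the steps from 10, 14 and 16 dpp, among members that passed. Cenpa, Cenpc1, Cenpi, Mad2l1 and the promoters printed were chosen after their values were seen. The members and gene lists were chosen with earlier results of these data known. Alternatives were the scaling, pseudocount, gene filter, variance prior, the ages fitted, the mouse number as a block, mice 1 to 3 of each age, and leaving out each sample. Gene positions are from GENCODE M21 (GRCm38), and Python 3.11.15 with numpy 2.4.6, pandas 2.3.3 and matplotlib 3.10.9 was used for tables and figures.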

Additional observations from a re-analysis of the deposited data

Results flagged for a closer look

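In 15 quantities searched over 90 sample groups of 4 or 5, 5 values stood farther from the rest of their group than Dixon's 95% limit, where chance gives about 1 in 20 groups. Ska3 was at 17.54 TPM in mouse 3 of 12 dpp, and the other 4 mice lay between 13.67 and 14.72 TPM. Cenpo was at 20.82 TPM in mouse 5 of 12 dpp, above 12.57 to 14.88 TPM in the others. Mad2l1 was at 51.90 TPM in mouse 2 of 14 dpp, below 66.29 to 69.59 TPM. Cenpu was at 24.49 TPM in mouse 1 of 16 dpp, above 14.37 to 16.60 TPM. Cdc20 was at 229.60 TPM in adult pool 3, below 236.96 to 238.13 TPM in the others.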

How the results depend on the processing

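The number of members called stayed within 1.5 times its value, under every alternative run, for 10 to 12, 14 to 16, 16 to 18 and 8 to 18 dpp and for any difference among ages. Leaving out 1 mouse gave 4 to 7, 8 to 10, 20 to 23, 23 to 28 and 28 to 31 members, respectively, 0 in each case for 8 to 10 dpp, 0 to 1 for 12 to 14 dpp and 1 to 4 called member transcripts, and leaving out 1 pool left 36 members at 3 TPM in the adult. The 23 came without mouse 2 of 8 dpp, where Cenph, Cenpm, Cenpe, Ndc80 and Mad1l1 lost their calls. With median-of-ratios scaling, which moved the median of all genes from -0.0939 to 0.0492 from 8 to 18 dpp and from -0.113 to 0.0261 from 16 to 18 dpp, 1 member passed from 8 to 10 dpp (Cenpt, lower, -0.33, adjusted p = 0.0375) and Ska3 no longer passed from 8 to 18 dpp (-0.20). The cause was not tested. That scaling also gained Zw10 (0.22) and Knstrn (0.45) from 8 to 18 dpp. A change of at least 10 points, or 18 against 8 dpp in a model of 4 ages, gave 4 called member transcripts in each case.

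Mice with the same number in different ages did not deviate together (r -0.248 to 0.253 over 65 pairs, median 0.0137), so the numbers were not taken as pairs. With the mouse number as a replicate block, 6, 9, 21 and 27 members were called from 10 to 12, 14 to 16, 16 to 18 and 8 to 18 dpp, 0 in the other 2 steps and 29 over any ages, with 2 member transcripts. Of all 20368 genes, 4300, 4823, 11014 and 13952 were called with this block from 10 to 12, 14 to 16, 16 to 18 and 8 to 18 dpp. Over any ages 15641 were called. Over all genes the block moved the calls from 8 to 10 dpp from 245 to 158. With no counts, depth sets no stated limit here, and the 3 mice at 8 dpp limit every comparison with that age. Leaving out the poorly matching mice of 8 dpp could also have narrowed the spread at that age, which was not tested.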
